A study of Homo sapiens with 12 samples.

Results

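The 10 transcripts described here encode dual-specificity MAP kinase phosphatases: DUSP1, DUSP2, DUSP4, DUSP5, DUSP6, DUSP7, DUSP8, DUSP10, DUSP14, and DUSP16. They were picked by gene name from the 58735 genes of the count table, with measured values of these samples in view, so their response to Arg is a description: no p-value is given for it, and counts of genes past a threshold are listed beside the share of all genes without being read as evidence. The samples were TIGK cells, a human gingival keratinocyte line immortalized with telomerase (hTERT), which is a single line and not gingival tissue. All cells were kept at 48 mM glucose, and either received 500 μM L-arginine (Arg) or no added Arg (control) for 24 or 48 h. According to the paper, the base medium of its assays was free of Arg. The comparison is therefore Arg against a base medium without it, not extra Arg in an ordinary medium. Each of the 4 groups had 3 RNA sequencing libraries (A, B, and C), 12 in all, with no library at the lower glucose level. The wells came from plates of the same line, and nothing shows that they were separate cultures, so the p-values measure only the spread between these samples.

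MAP kinases are switched on by phosphorylation of a threonine and a tyrosine in their activation loop, and dual-specificity phosphatases switch them off by removing both phosphates. DUSP1, DUSP2, DUSP4, and DUSP5 are nuclear enzymes whose genes are quickly induced by growth factors and stress. DUSP6 and DUSP7 act on ERK in the cytoplasm, DUSP8, DUSP10, and DUSP16 prefer the stress kinases JNK and p38, and DUSP14 is a small atypical member without the kinase-binding domain of the others. In epithelial cells, several of these genes are themselves transcribed in response to ERK signaling, so that they form a negative feedback loop and are used as read-outs of the pathway.

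The libraries held between 16542243 and 19040964 counts. All 11 keratinocyte markers were counted in TIGK cells, with a summed level of 44070 to 56237 CPM (counts per 1000000 counts) per library, whereas the summed markers of leukocytes reached at most 0.450 CPM, those of melanocytes 3.06 CPM (TYR at 0), and those of endothelial cells 6.41 CPM. The 6 fibroblast markers summed to 30.2 to 54.4 CPM at 24 h and to 72.7 to 103 CPM at 48 h. Control replicate B stood apart at both times. It was the lowest of the 3 control libraries for 7 of the 10 phosphatase genes at 24 h and for 7 at 48 h, compared with 37.6% and 40.9% of all tested genes. At 48 h, mitochondrially encoded genes took 1.55% of its counts, compared with 0.906% and 0.707% in the other control libraries. The main values that moved with this replicate are also given without it. Since these are bulk samples, fewer cells of a type and less RNA per cell cannot be told apart.

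All 10 genes had counts, but they differed widely in level. When CPM values (scaled by TMM over the 12 libraries) were divided by exonic length in kb, DUSP1 was the highest in control cells at 24 h, with a level of 153 ± 25.6 CPM per kb (SD, n = 3). DUSP14 followed at 54.3 ± 2.04 and DUSP5 at 35.2 ± 11.3 CPM per kb, and the libraries of these 3 genes did not overlap. DUSP6 (17.4 ± 4.19), DUSP7 (12.3 ± 2.08), DUSP2 (11.9 ± 2.45), and DUSP4 (10.4 ± 3.40 CPM per kb) formed a middle tier in which each gene overlapped its neighbor. DUSP10 (2.06 ± 0.507) and DUSP16 (1.95 ± 0.459 CPM per kb) were low and overlapped, and DUSP8 was close to 0 (0.0769 ± 0.0123 CPM per kb). DUSP8 had between 0 and 23 counts per library and 80 in total, and it was removed by the filter on low counts in every comparison, so that 9 of the 10 genes were tested. Its pseudogene DUSP8P5 had 69 counts in total, and reads could be split between them.

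**Figure D1:**
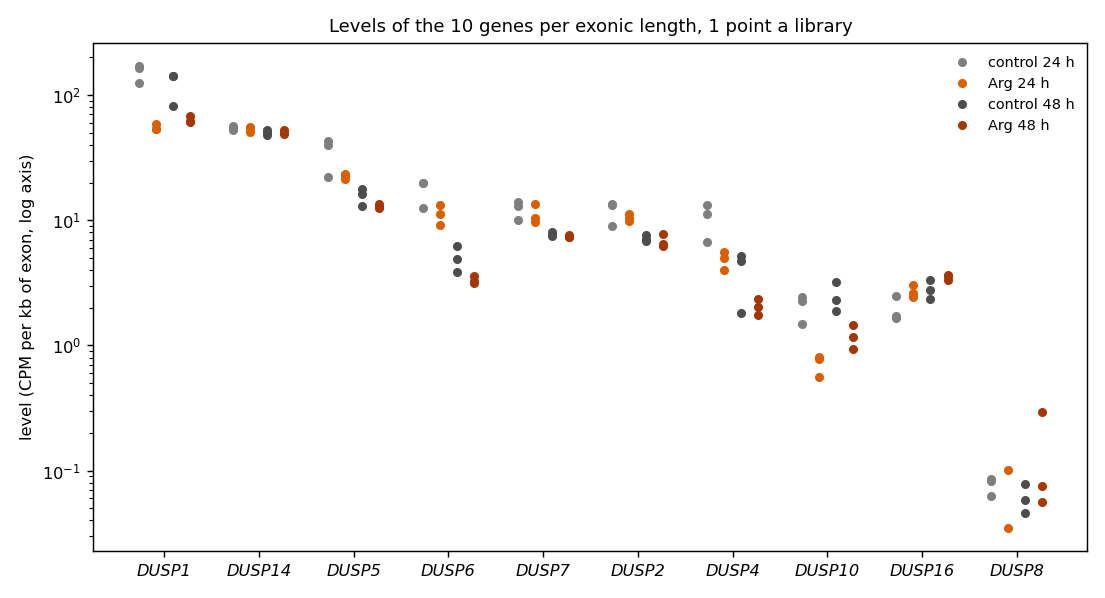
Level of each gene in CPM per kb of exon (log axis) in the 12 libraries, with 1 point per library and 1 color per group. DUSP1 led in all groups, and in Arg-treated cells at 24 h its libraries (53.4 to 59.1 CPM per kb) overlapped those of DUSP14 (50.8 to 55.7 CPM per kb); 1 Arg library of DUSP8 at 24 h had 0 counts and cannot be drawn on this axis.

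The order changed with treatment and time. In Arg-treated cells at 24 h, DUSP1 (55.4 ± 3.18 CPM per kb) and DUSP14 (53.5 ± 2.47 CPM per kb) had the same level within their spread. DUSP16 (2.71 ± 0.307 CPM per kb) was then above DUSP10 (0.715 ± 0.135 CPM per kb) without overlap. At 48 h, DUSP6 was in the sixth place in control cells (4.98 ± 1.18 CPM per kb) and in the seventh in Arg-treated cells (3.34 ± 0.241 CPM per kb), where it overlapped DUSP16 (3.52 ± 0.179 CPM per kb). The sum of the 10 levels was 299 ± 49.7 CPM per kb in control and 173 ± 4.19 in Arg-treated cells at 24 h, and 217 ± 41.3 and 151 ± 6.61 CPM per kb at 48 h. DUSP1 alone made up 51.3% ± 0.739 of that sum in control and 32.2% ± 2.66 in Arg-treated cells at 24 h, and 55.4% ± 6.54 and 41.9% ± 0.957 at 48 h (SD, n = 3).

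Promoter sequences were found for 8 of the 10 genes in a RefSeq table (GRCh38.p14), with 2 entries for DUSP10, and DUSP4 and DUSP5 had no entry. The 250 bases before the start were searched on both strands for a cyclic AMP response element (CRE, TGACGTCA, in 1.65% of all 35116 promoters), an AP-1 site (TGANTCA, 6.57%), a CArG box (1.16%), a TATA box (TATAAA, 10.7%), and an E-box (CACGTG, 6.34%). DUSP1, DUSP2, and DUSP8 are shown because they were the only ones of the 8 genes with a match. DUSP1, the most abundant of the 10, had a CRE at -125 to -118, an E-box at -108 to -103, and a TATA box at -30 to -25. DUSP2, another nuclear phosphatase known for rapid induction, had an E-box at -113 to -108, and the scarcely transcribed DUSP8 had a CRE at -118 to -111 and again at -74 to -67. The AP-1 site and the CArG box were found in none of the 8. A match shows only that these letters are present. The RefSeq starts also differ from the gene bounds of the count table for some genes. The windows of DUSP6 and of a DUSP10 entry lie inside the counted gene. That of DUSP8 begins at 1572272, past its gene end at 1571920. These windows need not be the promoters of the counted transcripts. The sequences run 5′ to 3′ on the gene's strand, from chr5:172771196-172771445 (minus strand) for DUSP1, chr2:96145441-96145690 (minus strand) for DUSP2, and chr11:1572272-1572521 (minus strand) for DUSP8, with the CREs and E-boxes in capitals.
DUSP1: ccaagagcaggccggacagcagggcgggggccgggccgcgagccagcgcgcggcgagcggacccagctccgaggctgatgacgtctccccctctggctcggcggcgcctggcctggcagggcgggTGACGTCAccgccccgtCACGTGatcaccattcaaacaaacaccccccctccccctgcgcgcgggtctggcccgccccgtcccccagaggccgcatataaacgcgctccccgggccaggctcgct
DUSP2: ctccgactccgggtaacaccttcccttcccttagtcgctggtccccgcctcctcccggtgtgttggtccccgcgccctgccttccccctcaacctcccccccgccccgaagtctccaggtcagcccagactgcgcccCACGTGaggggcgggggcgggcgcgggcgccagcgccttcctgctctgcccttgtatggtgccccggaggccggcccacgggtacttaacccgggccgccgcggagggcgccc
DUSP8: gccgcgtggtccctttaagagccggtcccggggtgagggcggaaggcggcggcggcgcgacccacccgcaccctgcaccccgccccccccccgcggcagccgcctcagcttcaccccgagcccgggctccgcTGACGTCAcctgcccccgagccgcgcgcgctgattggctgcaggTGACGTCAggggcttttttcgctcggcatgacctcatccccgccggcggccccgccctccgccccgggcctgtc

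Arg-treated and control cells were compared at each time point to see how the phosphatase transcripts responded to Arg. At 24 h, the nuclear phosphatases DUSP1 and DUSP4 and the JNK and p38 phosphatase DUSP10 were at less than their control level in every Arg library. DUSP5 and DUSP6 were lower on average, DUSP2, DUSP7, and DUSP14 lay within the spread of the libraries, and DUSP16 was higher on average. In the fit over all genes (edgeR's quasi-likelihood test, adjusted p under 0.05), 5 of the 9 tested genes were called lower (DUSP1, DUSP4, DUSP5, DUSP6, and DUSP10) and 0 higher, where 3.84% of all 14279 tested genes were called lower and 2.79% higher. At an unadjusted p under 0.05, 5 of the 9 genes were lower (1705 of all 14279 genes) and 1 was higher (DUSP16, with 10.8% of all genes). DESeq2 called 3 genes lower (4.64% of all genes) and 0 higher (3.36%). The 3 Arg libraries were below all 3 control libraries for 3 genes (13.4% of all genes) and above them for 0 (12.9% of all genes). The median log2 fold change of the 9 genes was -0.64, and that of all tested genes was 0.0030. These counts include the values by which the genes were proposed, and nothing is read from them. At 24 h, mitochondrially encoded genes also took less of the counts in Arg-treated cells (0.624% to 0.802%) than in control cells (1.197% to 1.30%), and their part in these results was not tested.

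DUSP1 (chromosome 5, 172768090 to 172771195, minus strand, GRCh38/hg38), which removes phosphate from p38, JNK, and ERK in the nucleus, had levels of 332, 250.4, and 346 CPM in control cells and 109, 108, and 119 CPM in Arg-treated cells at 24 h (A, B, and C). The groups were far apart, and even the lowest control library was above the highest Arg library by a wide margin. This is a log2 fold change of -1.47 ± 0.105 (SE), or 2.77-fold lower with Arg. At 48 h, the levels were 287, 164, and 289 CPM in control and 138, 122, and 125 CPM in Arg-treated cells. The groups still did not overlap, control B lay much nearer to the Arg libraries than A and C did, and the log2 fold change was -0.95 ± 0.164, or -1.17 ± 0.0610 without control B. Leaving out each library in turn gave -1.60 to -1.39 at 24 h and -1.17 to -0.82 at 48 h.

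DUSP4, a nuclear phosphatase for ERK, JNK, and p38 on chromosome 8, had 96.8, 48.4, and 81.1 CPM in control cells and 40.1, 35.9, and 29.0 CPM in Arg-treated cells at 24 h. All Arg libraries were lower than all control libraries, and the log2 fold change was -1.11 ± 0.179 (2.16-fold lower), or -1.35 ± 0.119 without control B. At 48 h, control cells had 34.0, 13.1, and 37.5 CPM and Arg-treated cells 12.7, 14.6, and 17.2 CPM. Here the groups overlapped because control B was below 2 of the 3 Arg libraries. The log2 fold change at 48 h was -0.93 ± 0.289, and -1.27 ± 0.115 without control B. With each library left out in turn, DUSP4 was at -1.35 to -0.89 at 24 h and -1.27 to -0.67 at 48 h.

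DUSP5 (chromosome 10, 110497838 to 110511544, plus strand), a nuclear phosphatase specific for ERK, had 113, 58.1, and 105 CPM in control cells at 24 h, and the Arg libraries were close together at 61.0, 59.6, and 56.2 CPM. Control B fell inside the Arg range, while A and C were far above it. Its log2 fold change was -0.65 ± 0.164 with all libraries and -0.89 ± 0.0902 without control B. At 48 h, DUSP5 was at 42.1, 34.1, and 46.4 CPM in control and 33.5, 32.6, and 35.6 CPM in Arg-treated cells, and control B again overlapped the Arg libraries. That log2 fold change was -0.27 ± 0.110, or -0.39 ± 0.0864 without control B. Over all libraries left out in turn, DUSP5 ranged from -0.89 to -0.47 at 24 h and from -0.39 to -0.17 at 48 h.

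DUSP2 (chromosome 2, 96143166 to 96145440, minus strand), the nuclear phosphatase first known from activated T cells, had 25.4, 17.5, and 26.0 CPM in control and 20.01, 21.6, and 18.9 CPM in Arg-treated cells at 24 h, so the Arg libraries lay within the control range because of control B. The difference at 24 h was -0.19 ± 0.141 on the log2 scale, and -0.35 ± 0.122 without control B. Its range was -0.35 to -0.09 with each library left out in turn. At 48 h, levels of 14.7, 13.3, and 13.7 CPM in control and 15.0, 12.03, and 12.5 CPM in Arg-treated cells overlapped as well, with a log2 fold change of -0.08 ± 0.134. Among the 4 inducible nuclear phosphatases, DUSP2 had the smallest Arg difference at both times.

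DUSP6 (chromosome 12, 89347232 to 89353271, minus strand), the cytoplasmic ERK phosphatase that is most often used as a read-out of ERK signaling, had 92.0, 58.3, and 91.9 CPM in control and 61.1, 51.8, and 42.2 CPM in Arg-treated cells at 24 h. Only control B came within the Arg range. The log2 fold change was -0.64 ± 0.152, or -0.84 ± 0.116 without control B. At 48 h, DUSP6 was much lower in both groups, at 22.8, 17.8, and 28.7 CPM in control and 16.7, 15.1, and 14.6 CPM in Arg-treated cells. The groups did not overlap at 48 h, with a log2 fold change of -0.58 ± 0.158, or -0.73 ± 0.120 without control B. Leaving out each library in turn gave -0.84 to -0.52 at 24 h and -0.73 to -0.39 at 48 h.

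DUSP7 (chromosome 3, 52048919 to 52056550, minus strand), the other cytoplasmic ERK phosphatase, had 72.8, 56.8, and 79.7 CPM in control and 59.1, 75.9, and 54.4 CPM in Arg-treated cells at 24 h. The groups were mixed, and the log2 fold change was -0.15 ± 0.128, or -0.28 ± 0.117 without control B. Its range was -0.30 to -0.04 with each library left out in turn. At 48 h, its libraries were tightly grouped, at 45.7, 42.1, and 45.0 CPM in control and 41.6, 41.4, and 43.0 CPM in Arg-treated cells, with a log2 fold change of -0.08 ± 0.0785.

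DUSP10 (chromosome 1, 221701424 to 221742176, minus strand), which inactivates JNK and p38, had 7.15, 6.55, and 4.35 CPM in control and 2.36, 1.63, and 2.26 CPM in Arg-treated cells at 24 h. Control B was not the lowest control library here, and the groups did not overlap. The log2 fold change was -1.53 ± 0.262 (2.88-fold lower), and it was -1.47 ± 0.293 without control B. At 48 h, control cells had 9.29, 5.45, and 6.76 CPM and Arg-treated cells 3.39, 2.74, and 4.26 CPM, again without overlap, and the log2 fold change was -1.05 ± 0.247, or -1.21 ± 0.226 without control B. With each library left out in turn, it ranged from -1.72 to -1.38 at 24 h and from -1.22 to -0.82 at 48 h. Together with DUSP1, DUSP10 was the gene whose groups did not overlap at either time, although it rested on few reads, with 28 to 177 counts per library.

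DUSP16 (chromosome 12, 12474210 to 12562383, minus strand), which also prefers JNK and p38, was the member with higher mean levels under Arg. It had 9.48, 14.2, and 9.79 CPM in control and 15.1, 13.98, and 17.4 CPM in Arg-treated cells at 24 h. Control B was the high library in this case and overlapped the Arg range. With all libraries, the log2 fold change was 0.47 ± 0.165, and 0.68 ± 0.160 without control B. At 48 h, the levels were 15.7, 19.1, and 13.6 CPM in control and 19.0, 21.0, and 20.4 CPM in Arg-treated cells, with a log2 fold change of 0.31 ± 0.134, or 0.46 ± 0.119 without control B. Over all libraries left out in turn, DUSP16 ranged from 0.37 to 0.68 at 24 h and from 0.20 to 0.46 at 48 h.

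DUSP8 (chromosome 11, 1554044 to 1571920, minus strand), the third stress kinase phosphatase, had 7, 7, and 5 counts in control and 0, 8, and 3 counts in Arg-treated cells at 24 h, and 4, 7, and 5 counts against 5, 23, and 6 counts at 48 h. A difference was not detectable at this depth. DUSP14 (chromosome 17, 37489831 to 37513501, plus strand), the atypical member, was the steadiest, at 136, 130.5, and 141 CPM in control and 135, 139, and 127 CPM in Arg-treated cells at 24 h. At 48 h it had 120.3, 126, and 131 CPM in control and 131, 122, and 124 CPM in Arg-treated cells. Its log2 fold changes were -0.02 ± 0.0790 and 0.00 ± 0.0662, with overlapping groups at both times.

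**Figure D2:**
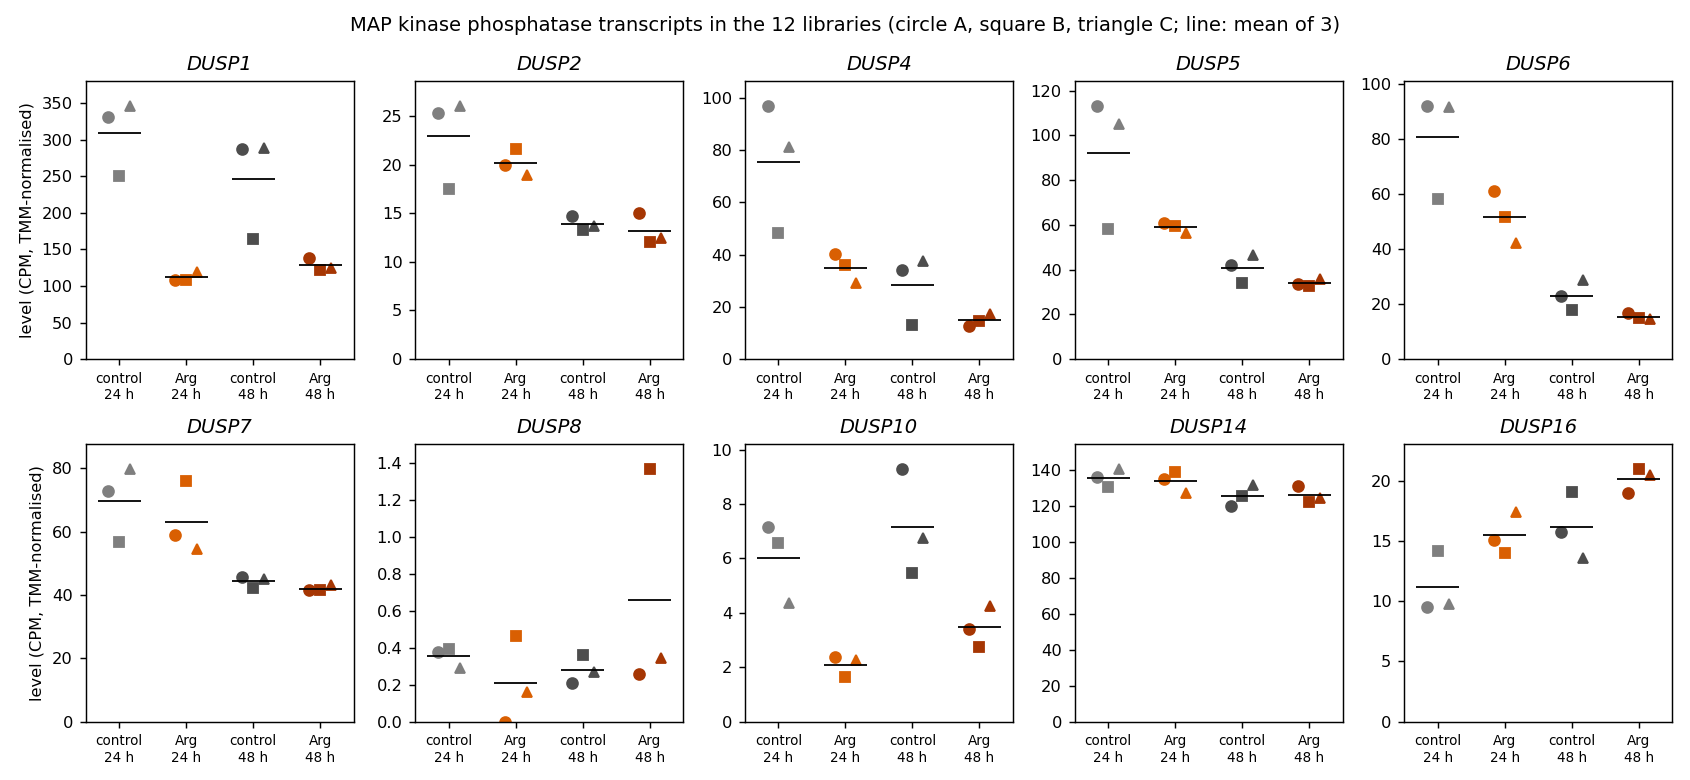
Level in CPM (TMM-normalized) of each gene in the 12 libraries, 1 panel per gene with its own axis from 0 and a line at each group mean (n = 3). Control B (square) sat below control A and C for DUSP1, DUSP2, DUSP4, DUSP5, DUSP6, and DUSP7 at both times, and the Arg libraries of DUSP1 (108 to 119 CPM at 24 h) were below all control libraries.

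Fewer genes passed the adjusted threshold at 48 h than at 24 h, among the 9 as among all tested genes. The number of genes called lower was 0 of 9 and the number called higher was 0, where 0.117% of all 14562 tested genes were called lower and 0% higher. At an unadjusted p under 0.05, 5 of the 9 genes were lower (7.49% of all genes) and 1 was higher (5.94%), and DESeq2 called DUSP1 and DUSP10 lower (1.17% of all genes) and 0 higher (0.386%). The Arg libraries were below all control libraries for 3 genes, DUSP1, DUSP6, and DUSP10 (8.51% of all genes), and above them for 0 (8.56% of all genes). As at 24 h, 8 of the 9 log2 fold changes were negative, as were 49.7% of those of all tested genes (49.5% at 24 h). The median of the 9 at 48 h was -0.27, compared with 0.0018 for all tested genes. The count of 0 depended on control B, since without that library DUSP1, DUSP4, DUSP5, DUSP6, and DUSP10 were called lower and DUSP16 higher, while 1213 of all tested genes were then called lower and 1152 higher. At 24 h, leaving out control B gave the same 5 lower genes and DUSP16 as higher, with 882 of all tested genes called lower in place of 549. Leaving out control A, control C, Arg B, or Arg C at 24 h gave 3 lower genes (DUSP1, DUSP4, and DUSP10), with 233 to 286 of all tested genes called lower, and leaving out Arg A gave these and DUSP6, with 639.

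**Figure D3:**
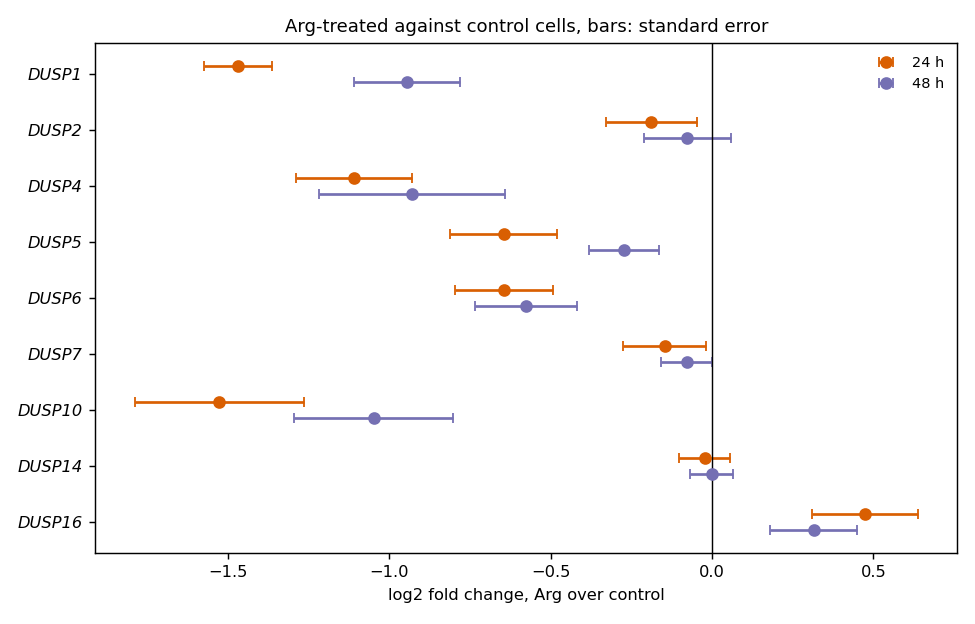
Log2 fold change of Arg-treated over control cells at 24 and 48 h for the 9 tested genes, with bars for the standard error of the fit. DUSP10 (-1.53 at 24 h) and DUSP1 (-1.47 at 24 h) lay farthest to the left, and DUSP16 (0.47 at 24 h) was to the right of 0.

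The 24 and 48 h comparisons were also set against each other with 1 model for the 12 libraries. This model contains the Arg comparisons, which were treated as part of the choice of the genes. The differences are therefore a description and not evidence. Subtracting the log2 fold change at 24 h from the one at 48 h gave the largest differences for DUSP1 (0.52 ± 0.214), DUSP10 (0.48 ± 0.366), and DUSP5 (0.37 ± 0.233). These genes were thus less reduced at 48 h on average. The difference was 0.18 ± 0.382 for DUSP4 and 0.07 ± 0.245 for DUSP6, within their standard errors. It was negative for DUSP16 (-0.16 ± 0.222). These differences moved with control B. Without its 48 h library, DUSP1 was at 0.30 ± 0.136, DUSP10 at 0.32 ± 0.358, and DUSP5 at 0.26 ± 0.223, and the difference was negative for DUSP4 (-0.16 ± 0.257) and DUSP6 (-0.09 ± 0.224). Without its 24 h library, DUSP5 was at 0.63 ± 0.143, DUSP4 at 0.43 ± 0.350, DUSP6 at 0.27 ± 0.211, and DUSP16 at -0.36 ± 0.207. None of the 9 genes was among the 2 genes called in this comparison, which are 0.0132% of the 15148 tested.

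The levels at 48 h were next compared with those at 24 h within each treatment, with edgeR's quasi-likelihood test. These comparisons use the same libraries as those above. Which measured values weighed in the choice of the 10 genes is not known. Their p-values with time are therefore not independent of that choice either. DUSP4, DUSP5, and DUSP6 fell with time whether or not Arg was present, as did DUSP2 and DUSP7. In control cells, 5 of the 9 genes fell (DUSP2, DUSP4, DUSP5, DUSP6, and DUSP7) and 0 rose, where 10% of the 14449 tested genes fell and 9.9% rose. At an unadjusted p under 0.05, 1 gene rose (DUSP16, with 17.1% of all genes), and DESeq2 also called it (9.73% of all genes). In these 5 genes every library at 48 h was below every library at 24 h (19.7% of all genes), and 0 genes were apart in the other direction (19.2% of all genes). In Arg-treated cells, the same 5 genes fell and DUSP16 rose, where 14% of the 14398 tested genes fell and 14.3% rose. Groups were apart for the 5 genes that fell (21.2% of all genes) and, upward, for DUSP1, DUSP10, and DUSP16 (21.1% of all genes). When the libraries were scaled by their size alone, 1008 of all tested genes fell and 1845 rose in control cells (1451 and 1431 with TMM), and 1453 fell and 2568 rose in Arg-treated cells (2012 and 2060 with TMM). The same 5 phosphatase genes fell under that scaling, while DUSP16 rose in both treatments and DUSP1 and DUSP10 rose in Arg-treated cells. The summed fibroblast and endothelial markers were also higher at 48 h in both treatments, and their part in the time comparisons was not tested.

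DUSP6 had the largest decrease. It fell by 1.80 ± 0.189 on the log2 scale in control cells (3.49-fold, adjusted p = 0.000554) and by 1.74 ± 0.121 in Arg-treated cells (3.33-fold, adjusted p = 1.08e-08, edgeR). DUSP4 fell by 1.42 ± 0.316 in control cells (adjusted p = 0.0106) and by 1.24 ± 0.129 in Arg-treated cells (adjusted p = 9.05e-07). DUSP5 fell by 1.17 ± 0.202 (adjusted p = 0.00382) and by 0.80 ± 0.0839 (adjusted p = 1.07e-06), respectively. These 3 genes lost more than the other 2, and they include both a nuclear and a cytoplasmic phosphatase of ERK. DUSP7 fell by 0.65 ± 0.116 (adjusted p = 0.00421) in control and by 0.59 ± 0.104 (adjusted p = 0.000300) in Arg-treated cells, although it had shown little difference with Arg. DUSP2 likewise fell by 0.72 ± 0.155 (adjusted p = 0.00907) and by 0.61 ± 0.125 (adjusted p = 0.00115).

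DUSP1, the most abundant phosphatase transcript, did not pass the test with time in either treatment. Its log2 fold change from 24 to 48 h was -0.32 ± 0.182 in control cells (adjusted p = 0.237) and 0.20 ± 0.0752 in Arg-treated cells (adjusted p = 0.0547), where the 48 h libraries (122 to 138 CPM) were all above the 24 h libraries (108 to 119 CPM). These calls depended on the setting. Without control B at 48 h the value in control cells was -0.10 ± 0.109 (adjusted p = 0.580), while the fit with no filter on low counts and the fit with the replicate letter as a block called DUSP1 lower there. In Arg-treated cells, DUSP1 was called higher by DESeq2, with scaling by library size alone, with at least 10 counts in every library, and without Arg C at 24 h. DUSP10 changed by 0.25 ± 0.245 in control (adjusted p = 0.503) and by 0.73 ± 0.288 in Arg-treated cells (adjusted p = 0.0640), the latter also without overlap. DUSP16 rose by 0.38 ± 0.119 in Arg-treated cells (adjusted p = 0.0228), and its value in control cells was 0.54 ± 0.185 (adjusted p = 0.0600), or 0.74 ± 0.177 (adjusted p = 0.0140) without control B at 24 h. Whether the time response differed between the treatments is the same interaction as above, in which none of these genes was called. DUSP14 stayed within its spread, at -0.11 ± 0.0741 in control (adjusted p = 0.339) and -0.09 ± 0.0705 in Arg-treated cells (adjusted p = 0.394). Without control A or without control C at 24 h, 3 genes (DUSP5, DUSP6, and DUSP7) passed in control cells instead of 5. Of all tested genes, 406 then fell and 422 rose (without A) and 501 fell and 497 rose (without C), in place of 1451 and 1431. Without Arg B at 24 h, or without Arg B or C at 48 h, DUSP16 was no longer called in Arg-treated cells. In these 3 fits, 1837, 1560, and 1580 of all tested genes rose, in place of 2060.

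**Figure D4:**
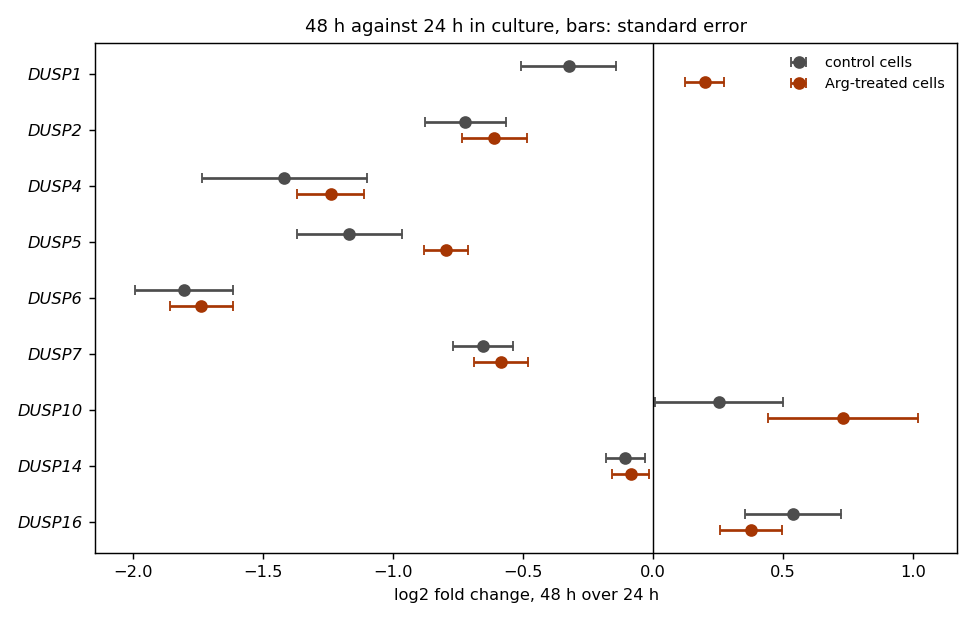
Log2 fold change from 24 to 48 h in control and Arg-treated cells for the 9 tested genes, with bars for the standard error of the fit. DUSP6 (-1.80 and -1.74), DUSP4 (-1.42 and -1.24), and DUSP5 (-1.17 and -0.80) lay to the left in both treatments, while DUSP10 (0.73) and DUSP16 (0.38) were to the right of 0 in Arg-treated cells.

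The other genes of the pathway were taken from lists drawn up by function and name, and they were tested with Arg against control in the same fit over all genes. Earlier results of these data were known when the lists were made. The values and p-values of the lists are therefore a description and not independent evidence. The value beside each gene below is its log2 fold change of Arg over control ± SE. Of the other DUSP and STYX genes, 12 of 16 were tested at 24 h. Among these, 1 was lower (3.84% of all genes) and 0 were higher (2.79%), with a median log2 fold change of -0.04. The gene that was lower was DUSP9, a cytoplasmic ERK phosphatase and a close relative of DUSP6 and DUSP7, at 42.0 CPM in control and 32.4 CPM in Arg-treated cells (-0.38 ± 0.109, adjusted p = 0.0469, edgeR). DUSP3, a small atypical phosphatase of ERK and JNK, had a log2 fold change of 0.01 ± 0.103 (adjusted p = 0.961), and DUSP22, an atypical regulator of JNK signaling, one of -0.17 ± 0.136 (adjusted p = 0.499). At 48 h, 11 of the 16 genes were tested and 0 passed, with 0 at an unadjusted p under 0.05 and 0 by DESeq2. Without control B, however, DUSP9 was called lower, as was DUSP11, which is named after its value was seen. In that fit, 1213 of all 14854 tested genes were called lower. The phosphatases of MAP kinases from other families (7 of 10 tested) had 0 genes past the threshold at both times by edgeR and by DESeq2, with 1 (24 h) and 0 (48 h) at an unadjusted p under 0.05 and medians of -0.02 and -0.05. At that unadjusted threshold, 1705 of all 14279 tested genes were lower and 1548 higher at 24 h.

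The transcripts of the kinases that these phosphatases act on gave no call with Arg when all libraries were kept. Of the 13 tested MAP kinase genes, 0 passed at 24 or 48 h by edgeR or DESeq2, with medians of 0.07 and -0.06. At an unadjusted p under 0.05, 2 were lower and 2 higher at 24 h, and 1 was lower and 1 higher at 48 h. The same threshold took in 1705 lower and 1548 higher of all 14279 tested genes at 24 h, and 1090 and 865 of 14562 at 48 h. Without control B, MAPK13 of the p38 family, named after its values were seen, was called higher, with a log2 fold change of 0.31 ± 0.0977, adjusted p = 0.0458 at 24 h, and 0.30 ± 0.0700, adjusted p = 0.00498 at 48 h. Among all tested genes, 647 of 14645 were then called higher at 24 h and 1152 of 14854 at 48 h. The ERK gene MAPK3 had a log2 fold change of 0.08 ± 0.0938 (adjusted p = 0.663) at 24 h, and the p38 gene MAPK14 had one of -0.06 ± 0.0935 (adjusted p = 0.737). The JNK genes had lower means with Arg, with log2 fold changes for MAPK8 of -0.32 ± 0.117 (adjusted p = 0.114) and MAPK9 of -0.24 ± 0.0936 (adjusted p = 0.126), but neither passed. Of the 33 genes of the Ras, Raf, MAP2K, and MAP3K tiers, 1 was lower and 2 were higher at 24 h. Of all tested genes, 3.84% were lower and 2.79% higher, which also applies to the downstream kinases below. MAP2K1, a kinase that activates ERK, had 111 CPM in control and 79.5 CPM in Arg-treated cells (-0.48 ± 0.0988, adjusted p = 0.00705). MAP3K11 (0.42 ± 0.111, adjusted p = 0.0309) and MAP3K6 (0.36 ± 0.0978, adjusted p = 0.0325), which act upstream of JNK and p38, were higher. Among the 11 kinases downstream of MAP kinases, MKNK2, which phosphorylates the cap-binding protein eIF4E, was lower (-0.35 ± 0.0868, adjusted p = 0.0214) and 0 were higher. At 48 h, 0 genes of these 2 lists passed by edgeR or DESeq2. At an unadjusted p under 0.05, 1 upstream gene was lower and 4 were higher, and 1 downstream kinase was lower and 0 higher. Of all tested genes, 7.49% were lower and 5.94% higher at that threshold. Without control B, MAP2K1 and MKNK2 were called lower at 48 h, and 4 genes upstream were called higher, MAP3K11 and MAP3K6 among them. Of all tested genes, 1213 were then called lower and 1152 higher.

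Most of the transcripts that serve as read-outs of ERK activity were lower with Arg at 24 h. The list leaves out the 10 phosphatase genes but, like the others, was made with earlier results known, and all of its 19 genes were tested. At 24 h, 11 were lower (3.84% of all genes) and 1 was higher (2.79%), with a median of -0.69 compared with 0.0030 for all tested genes. DESeq2 called 9 lower (4.64% of all genes) and 1 higher (3.36%). Without control B the counts were 13 and 1, while 882 of all tested genes were then called lower and 647 higher. FOS, an immediate early transcription factor gene, had 126 to 196 CPM in control and 36.1 to 43.5 CPM in Arg-treated cells (-2.05 ± 0.130, adjusted p = 4.26e-08, edgeR). FOSB, its relative, had 8.42 to 19.3 CPM in control and 3.65 to 4.27 CPM in Arg-treated cells (-1.96 ± 0.250, adjusted p = 0.000124). Neither group pair overlapped. PHLDA1, another early response gene, was lower as well (-1.06 ± 0.128, adjusted p = 7.21e-05), and so were the ETS factor genes ETV5 (-0.73 ± 0.113, adjusted p = 0.000780) and ETV4 (-0.72 ± 0.125, adjusted p = 0.00235).

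The read-outs were not uniform, however. EGR1, also an immediate early gene, had a log2 fold change of -0.12 ± 0.159 (adjusted p = 0.697) at 24 h, although it was called lower without control B (-0.36 ± 0.0935, adjusted p = 0.0185), and CCND1, which encodes cyclin D1, one of 0.08 ± 0.0820 (adjusted p = 0.606). The gene that was higher, named here after its value was seen, was EMP1, which encodes an epithelial membrane protein (0.25 ± 0.0728, adjusted p = 0.0480). Among 13 tested negative feedback genes of the ERK pathway, SPRY4 (-0.85 ± 0.212, adjusted p = 0.0222) and SPRY2 (-0.80 ± 0.218, adjusted p = 0.0361), Sprouty inhibitors of Ras activation that are also on the read-out list, were lower and 0 were higher, with a median of -0.12. Both overlapped between the groups, and DESeq2 called SPRY2 and not SPRY4. Of all tested genes, 3.84% were lower and 2.79% higher at 24 h by edgeR. Control B was the lowest control library for 16 of the 19 read-outs at 24 h and for 13 at 48 h.

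At 48 h, FOS was the 1 read-out of 19 that passed, with 131 to 135 CPM in control and 63.0 to 79.5 CPM in Arg-treated cells (-0.94 ± 0.0879, adjusted p = 0.000507, edgeR). The median of the list was -0.30, compared with 0.0018 for all tested genes. At an unadjusted p under 0.05, 10 read-outs were lower (7.49% of all genes) and 0 higher (5.94%). DESeq2 called 2 lower (1.17% of all genes) and 0 higher (0.386%). Without control B, 12 of the 19 were called lower and 1 higher, while 1213 of all tested genes were then called lower and 1152 higher. PHLDA1 (-0.92 ± 0.208, adjusted p = 0.134) had groups that did not overlap, and ETV4 (-0.87 ± 0.282, adjusted p = 0.227), ETV5 (-0.83 ± 0.353, adjusted p = 0.337), and SPRY4 (-0.60 ± 0.225, adjusted p = 0.283) had negative values as well. Of the 13 negative feedback genes, 0 passed at 48 h by edgeR or DESeq2, with 1 (SPRY4) at an unadjusted p under 0.05 and a median of -0.04. SPRY4 was called lower without control B.

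**Figure D5:**
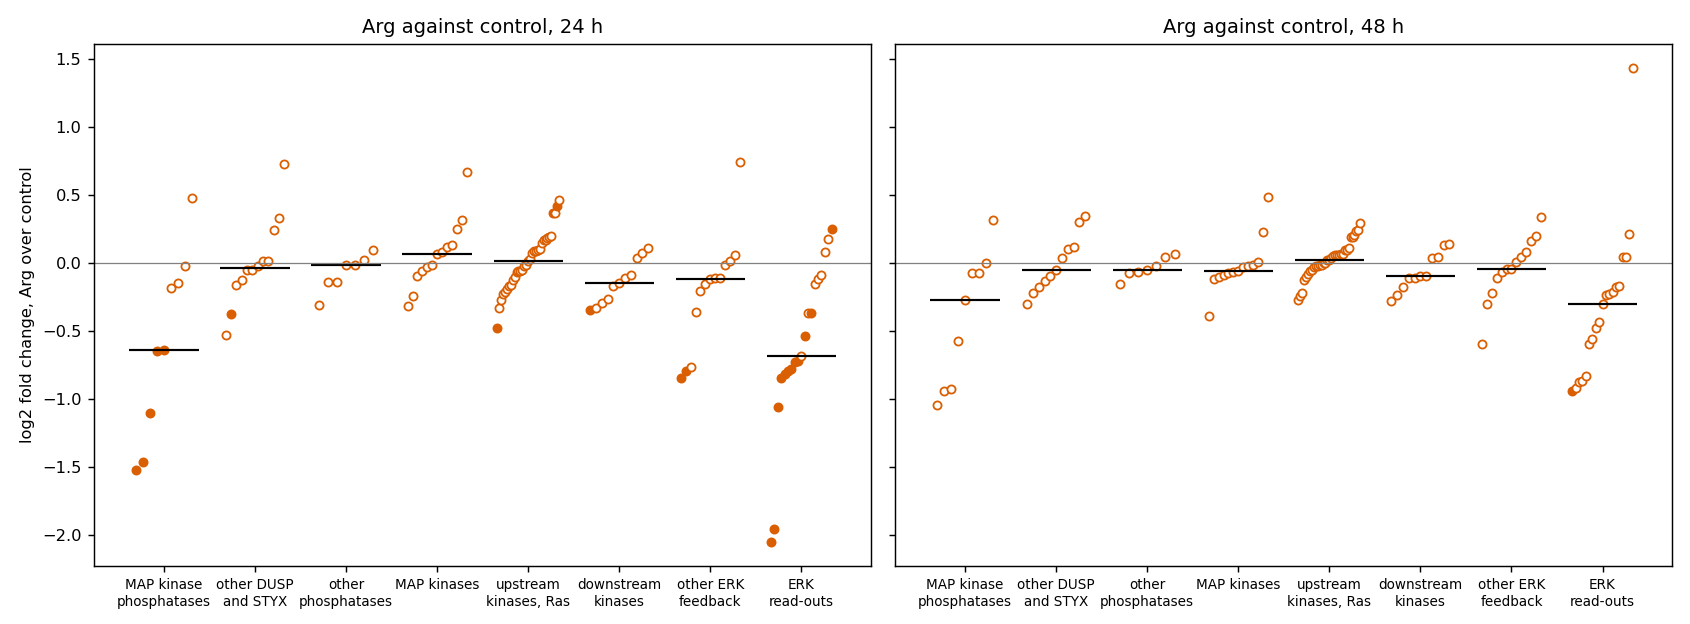
Log2 fold change of Arg-treated over control cells at 24 h (left) and 48 h (right) for the 9 tested phosphatase genes and for the other lists, with 1 point per gene, filled where the adjusted p was under 0.05, and a line at each median. At 24 h the medians of the phosphatases (-0.64) and of the ERK read-outs (-0.69) lay below those of the other lists (-0.15 to 0.07).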

How the data were processed

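Poly(A) RNA of 12 TIGK libraries was sequenced as 150 bp paired-end reads. According to the submitters' processing notes, the authors filtered reads with fastp, used STAR to map them to GRCh38/hg38 and featureCounts to count them per gene, and the deposited values are raw counts that were not normalized. The versions, the annotation release, and the strand setting are not given in the sources used here. DUSP1, DUSP6, DUSP8, and DUSP16 overlap genes on the other strand, which had at most 32 counts in total, so reads of a pair could not be told apart. All 12 count columns were used, and 0 were left out. The levels are CPM with TMM factors over 12 libraries, divided by the exonic length of the deposited table where genes are compared.

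Groups came from the labels. Each pair of groups was fitted with edgeR 4.0.16 in R 4.3.3 (limma 3.58.1), using TMM, filterByExpr, and its quasi-likelihood test with no block, and p-values were adjusted (Benjamini–Hochberg) over all genes tested. The difference between times came from an interaction in 1 model of the 12 libraries. The main pairwise fits were tested on simulated data with a single dispersion and no outlying library. The interaction and the alternatives were not tested in this way. Replicates were compared first, and over the 12 replicate pairs the chi-square per degree of freedom was 3.66 to 23.9, so no library was counted as a repeat of another. The depth was 16542243 to 19040964 counts per library, which limits the precision of DUSP10 (28 to 177 counts) and DUSP8 (0 to 23 counts) most. The alternatives were DESeq2 1.42.0, edgeR with the size factors of DESeq2, scaling by library size alone, no filter, at least 10 counts in every library, the model of 12 libraries, a replicate block, and leaving out each library.

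The members and lists were chosen with earlier results of these data known. The genes named are the 10 phosphatases, at most 5 genes with an adjusted p under 0.05 per list and time, and preset genes (DUSP3, DUSP9, DUSP22, FOS, EGR1, SPRY2, SPRY4, ETV4, ETV5, PHLDA1, CCND1, MAPK3, MAPK8, MAPK9, and MAPK14). A preset gene and a marker are not reported here.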

Additional observations from a re-analysis of the deposited data

Results flagged for a closer look

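FOS, an immediate early transcription factor gene among the ERK read-outs, had a smaller difference between Arg-treated and control cells at 48 h than at 24 h. The difference of the log2 fold changes, 48 h less 24 h, was 1.11 ± 0.173 (adjusted p = 0.0229, edgeR's interaction test over all genes), from -2.05 at 24 h and -0.94 at 48 h. It was 1.09 to 1.12 in the alternatives with all libraries and 0.95 to 1.27 when each library was left out. FOS passed the threshold in 2 of these 12 settings, without control B at 24 h or at 48 h. The other gene called in this comparison, named after its value was seen, was MT-RNR1, a mitochondrial ribosomal RNA gene (0.83 ± 0.126, adjusted p = 0.0229).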

How the results depend on the processing

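The count of phosphatase genes called lower with Arg at 24 h was 5, and it was 3 with DESeq2 and 3 to 5 when each library was left out. Of all tested genes, 549 were called lower at 24 h in the main fit, 611 with DESeq2, and 233 to 882 with a library left out. At 48 h the count of phosphatase genes was 0 with edgeR and 2 with DESeq2. It was 4 when genes with low counts were kept, 1 with a joint fit of all 12 libraries, and 3 with the replicate block. It was 0 to 5 when each library was left out (5 without control B). In the same order, 17, 127, 374, 37, and 141 of all tested genes were called lower at 48 h, and 5 to 1213 with a library left out. Same-letter libraries of Arg-treated and control cells deviated together with correlations of only -0.115 to 0.0701. Between the times they were negative in Arg-treated cells. In control cells they were 0.106 (A), 0.225 (B), and 0.0691 (C), so a pairing by letter is possible there. The main fits had no block, and under the replicate block the genes called with Arg at 24 h were the same 5. In control cells, the replicate block called 7 genes with time, DUSP1 as lower and DUSP16 as higher beside the 5. Of all tested genes, it called 2075 lower and 1969 higher, in place of 1451 and 1431. The count of phosphatase genes that changed with time in control cells was 5, and 3 to 6 when each library was left out. Across those left-out fits, 406 to 1719 of all tested genes were lower and 422 to 1585 higher. The median difference of the Arg effect between the times was 0.11, and 0.0149 to 0.285 when each library was left out. The median of the MAP kinase genes at 24 h was 0.07, and 0.0235 with DESeq2, 0.0219 with no filter, and -0.0235 to 0.138 when each library was left out. When each library was left out, the 24 h medians ranged from -0.11 to 0.0148 for the other DUSP and STYX genes, -0.0264 to 0.0584 for the upstream genes, -0.21 to -0.14 for the downstream kinases, -0.18 to -0.11 for the feedback genes, and -0.14 to 0.0112 for the other phosphatases. The cause of these shifts was not tested. For single phosphatase genes with all libraries kept, 114 of 126 values of the time comparisons stayed on their side of the threshold, 11 gained a call, and 1 lost it, and for Arg against control 113 of 126 stayed, 11 gained a call, and 2 lost it. With a library left out, 98 of 108 values stayed with time, 3 gained a call, and 7 lost it, and with Arg 92 of 108 stayed, 7 gained a call, and 9 lost it. The direction of a called gene was not reversed in these settings. Depth limited DUSP8, with 0 to 23 counts per library, and DUSP10, with 28 to 177.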
